A study of Rattus norvegicus with 35 samples.

Results

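The comparison described here is between 3 liver libraries from rats given 10 mg/kg ketoconazole per day by mouth for 7 days (low dose day 7) and 3 liver libraries from rats given the vehicle, 0.5% methylcellulose, for the same 7 days (control day 7). These 6 libraries were taken by name from a table of 35, and all 763 microRNAs (miRNAs) of the table were considered. Of these, 525 had at least 1 count in the 6 libraries, 238 were at 0 in them, and 328 were tested. The animals were male Sprague-Dawley rats, 6 weeks old, and the liver was collected 24 h after dosing ended. Low dose libraries of days 3 and 14, day 7 libraries of the middle (30 mg/kg) and high dose (100 mg/kg), and controls of days 3 and 14 were used only where the low dose day 7 libraries were set against them. Every group had 3 libraries except control day 14, which had 2. Nothing in the labels ties a replicate number to a rat of its own, so a p-value here compares a difference with the spread among the samples, which may be technical.

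Ketoconazole is an azole antifungal drug that inhibits cytochrome P450 enzymes, including the fungal sterol demethylase, and it can injure the liver. An miRNA is a short RNA cut from a hairpin precursor, whose 5p and 3p arms can each be loaded into an Argonaute protein, and it represses messenger RNAs that pair with its seed, bases 2 to 8. Hepatocytes are rich in a small number of miRNAs, among them miR-122, miR-192, miR-22 and miR-148a, and several liver miRNAs are measured in blood as markers of liver injury.

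The total count was 4017830, 4291752 and 3636304 in the low dose libraries, against 4178766, 2815680 and 3411908 in the control libraries, and ran from 2665943 to 9665416 over the series. On the first principal component of log2 CPM (counts scaled to a common total), with 46.2% of the variance, the low dose day 7 libraries scored 4.67, 4.24 and 4.5, against -7.47, -14.49 and -13.26 for the control day 7 libraries. The low dose libraries thus lay beside those of the middle and high doses and apart from the low dose on days 3 and 14, and control replicates 2 and 3 lay farthest out of all 35. Control replicate 1 differed from replicates 2 and 3 by a chi-square per degree of freedom of 340 and 330, against 95.5 between replicates 2 and 3 and 64.9 to 80 among the low dose libraries. The low dose libraries of days 3 and 14 scored -9.65 to -4.32, among the controls. Groups are used here as labelled, and no value in the files checks the dose of a library, so a response particular to day 7 and libraries whose label does not match their dose cannot be told apart. The labels name no batch, so dose and any unrecorded batch cannot be told apart. Results are therefore also given against the controls of days 3 and 14, and against control replicate 1 alone, a fit in which that lone library is assumed to vary like the other groups.

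**Figure D1:**
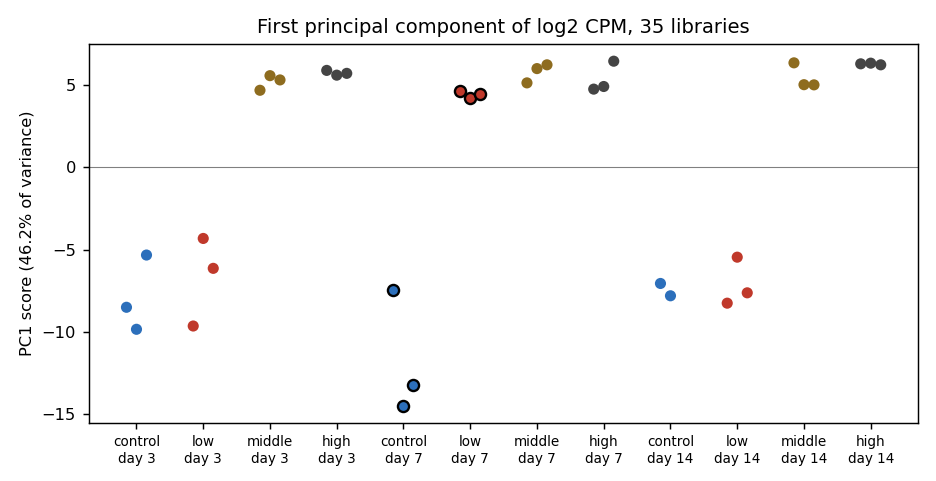
Score of each of the 35 libraries on the first principal component of log2 CPM (vertical axis, no unit) by group (horizontal axis), with low dose and control of day 7 outlined in black. The 3 low dose day 7 libraries sit between 4.24 and 4.67 and the 3 control day 7 libraries between -14.49 and -7.47.

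RefSeq (GRCr8) gave a mature sequence for 686 of the 763 miRNAs and for 292 of the 328 tested. The sequences of the largest rises and falls are shown because the results turn on them, together with 4 miRNAs that share a seed with one of them, with bases 2 to 8 in capitals and the 5′ end first. The miRNAs that rose most, with the seed partners miR-221-3p and miR-193a-3p, were
miR-22-5p: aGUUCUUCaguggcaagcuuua
miR-128-3p: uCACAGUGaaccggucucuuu
miR-145-5p: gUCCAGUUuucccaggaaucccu
miR-191a-5p: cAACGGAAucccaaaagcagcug
miR-222-3p: aGCUACAUcuggcuacugggu
miR-221-3p: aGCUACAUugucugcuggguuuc
miR-322-3p: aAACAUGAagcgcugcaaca
miR-365-3p: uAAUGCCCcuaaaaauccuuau
miR-671: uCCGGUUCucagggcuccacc
miR-193b-3p: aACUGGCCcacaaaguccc
miR-193a-3p: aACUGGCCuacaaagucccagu
miR-28-3p: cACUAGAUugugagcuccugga
miR-361-5p: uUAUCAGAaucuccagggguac
and miR-423-3p. Here miR-222-3p and miR-221-3p share the seed GCUACAU, and miR-193b-3p and miR-193a-3p share ACUGGCC, and all 4 rose.

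The miRNAs that fell most, with the 2 risen members of the seed AUUGCAC that miR-363-3p and miR-25-3p carry, were
miR-411-5p: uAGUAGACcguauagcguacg
miR-363-3p: aAUUGCACgguauccaucugu
miR-25-3p: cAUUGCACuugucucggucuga
miR-92a-3p: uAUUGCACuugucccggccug
miR-92b-3p: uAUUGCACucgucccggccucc
miR-181a-2-3p: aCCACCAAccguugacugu
miR-532-5p: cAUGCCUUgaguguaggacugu
miR-6329: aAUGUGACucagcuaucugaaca
miR-15b-5p: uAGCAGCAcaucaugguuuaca
and miR-598-3p, miR-99a-5p, miR-455-5p, miR-200a-3p and miR-200b-3p. The 5 tested miRNAs with AUUGCAC did not move together. Of them miR-92a-3p and miR-92b-3p rose, miR-25-3p and miR-363-3p fell, and miR-32-5p (log2 fold change -0.35) did not pass. The conditions of the choice left out other called falls, such as miR-200a-5p (log2 fold change -1.30 ± 0.33).

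Low dose day 7 livers differed from control day 7 livers in 148 of 328 miRNAs (45.1%) at an adjusted p under 0.05 (edgeR quasi-likelihood F-test, p-values adjusted after Benjamini and Hochberg). Of these, 87 (26.5%) were higher and 61 (18.6%) lower, and 68 changed at least 2-fold, 55 upward and 13 downward. The rises were therefore larger than the falls: none of the 12 largest falls reached a log2 fold change of -2, and all 12 of the largest rises passed 2.5. The 3 low dose libraries all lay above the 3 control libraries in CPM for 98 miRNAs (29.9%) and all below them for 67 (20.4%), together 165 (50.3%). The median log2 fold change over all 328 was 0.02.

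The balance of rises and falls depended on the scaling. With DESeq2's size factors in place of TMM factors, 78 miRNAs were higher and 76 lower, and thinning every library to the smallest total moved the median log2 fold change of all miRNAs to -0.11 with 76 calls each way. Against control replicate 1 alone, 64 miRNAs passed, 42 higher and 22 lower, and 63 of them were among the 148. The miRNAs called higher held 44.7, 43.3 and 43.9% of all counts in the low dose libraries, against 30.5, 21.4 and 22.7% in the control libraries. Those called lower held 31.4, 31.5 and 32.4% in the low dose libraries, against 43.9, 51.9 and 50.7% in the control libraries. In both sets the control libraries spread more than the low dose libraries did, with replicate 1 nearest to the low dose.

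**Figure D2:**
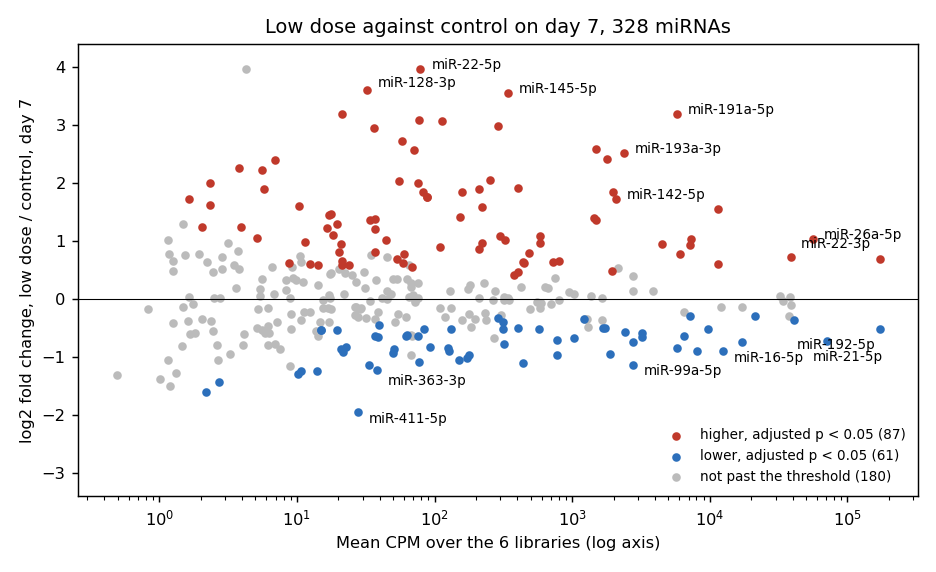
Log2 fold change of low dose over control on day 7 (vertical axis) against mean CPM over the 6 libraries (horizontal axis, log scale) for 328 miRNAs, one point each, coloured by whether the miRNA passed an adjusted p of 0.05. The 87 higher miRNAs reach 3.97 (miR-22-5p), and the largest named fall is -1.95 (miR-411-5p).

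The largest rise was in miR-22-5p, the scarce arm of the hairpin that also gives the abundant hepatic miR-22-3p. Its level was 155, 131 and 162 CPM in low dose livers, against 11.9, 4.68 and 11.1 CPM in control livers. The groups stood far apart, with a log2 fold change of 3.97 ± 0.26 (SE), 15.7-fold, and an edgeR adjusted p of 8.01e-14. miR-128-3p, reported in mice to repress the cholesterol exporter Abca1, had 65.8, 59.9 and 54 CPM in low dose livers, against 8.23, 3.6 and 2.28 CPM in control livers. It rose by 3.60 ± 0.37 on the log2 scale (edgeR adjusted p = 1.39e-09).

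miR-145-5p, known from smooth muscle and stellate cells, had 600.0, 645 and 656 CPM in low dose livers, against 78, 38.5 and 44 CPM in control livers. That is a log2 fold change of 3.55 ± 0.25 (edgeR adjusted p = 4.67e-13), with low dose libraries within 10% of each other. miR-191a-5p, a broadly expressed miRNA made from the same transcript as miR-425, had 10876.5, 10216 and 10329 CPM in low dose livers, against 1435, 997 and 979 CPM in control livers. It was the most abundant of the 12 largest rises, and its log2 fold change was 3.20 ± 0.19 (edgeR adjusted p = 1.14e-14). Its transcript partner did not rise: miR-425-5p was called lower (log2 fold change -0.40) and miR-425-3p did not pass (-0.40). miR-322-3p, from the hairpin whose human counterpart is miR-424, had 133, 150.0 and 132 CPM in low dose livers, against 18.8, 15.8 and 14.3 CPM in control livers (log2 fold change 3.08 ± 0.20, edgeR adjusted p = 8.01e-14).

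miR-222-3p and its neighbour miR-221-3p, which repress the cell cycle inhibitor p27 in human cells, both rose. miR-222-3p had 32.5, 34.3 and 48.9 CPM in low dose livers, against 4.8, 2.52 and 4.86 CPM in control livers (log2 fold change 3.20 ± 0.30). miR-221-3p had 90.6, 107 and 187 CPM in low dose livers, against 34.5, 30.2 and 41.4 CPM in control livers (log2 fold change 1.85 ± 0.30). Low dose replicate 3 was the highest of the 6 libraries for both, and neither pair of groups overlapped.

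miR-193b-3p and miR-365-3p, known together from mouse brown fat, rose by 2.73 ± 0.28 and 3.07 ± 0.30 on the log2 scale. Whether their counts come from one locus was not tested. miR-193b-3p had 114, 88.9 and 99.2 CPM in low dose livers, against 21, 12.6 and 11.1 CPM in control livers. miR-365-3p had 192, 209 and 212 CPM in low dose livers, against 37.1, 15.8 and 19.1 CPM in control livers. Control replicate 1 was the control library nearest to the low dose for both. The other rises among the 12 were miR-423-3p at 2.98 ± 0.26, miR-671 at 2.95 ± 0.31, miR-28-3p at 2.58 ± 0.19 and miR-361-5p at 2.57 ± 0.25 on the log2 scale, with edgeR adjusted p-values of at most 1.39e-09 over the 12.

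All 12 rises also passed against the controls of days 3 and 14 (log2 fold changes of 2.03 to 3.48), against control replicate 1 alone (1.90 to 3.50), and with any of the 6 libraries left out. The 2 groups did not overlap for any of them, which the choice of these miRNAs required.

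**Figure D3:**
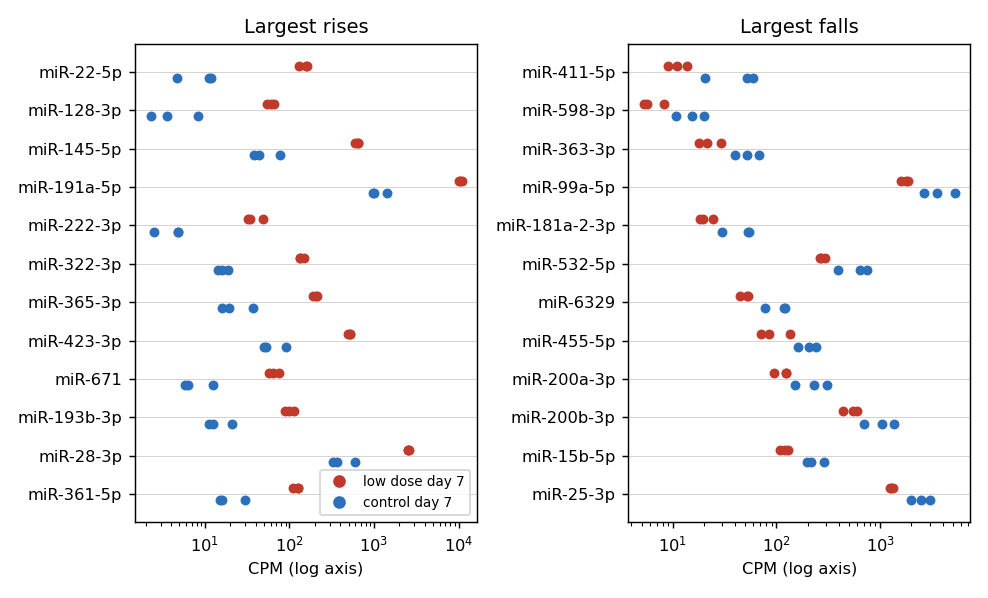
CPM (horizontal axis, log scale) of the 12 largest rises and the 12 largest falls in each of the 3 low dose (red, upper row of each pair) and 3 control (blue, lower row) libraries of day 7. For miR-22-5p the low dose libraries sit between 131 and 162 CPM and the control libraries between 4.68 and 11.9 CPM, and for miR-411-5p between 9.09 and 13.8 CPM and between 20.6 and 59.3 CPM.

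The largest fall was in miR-411-5p, of the imprinted Dlk1-Dio3 miRNA cluster. It had 13.8, 11 and 9.09 CPM in low dose livers, against 20.6, 59.3 and 52.3 CPM in control livers, a log2 fold change of -1.95 ± 0.49 (edgeR adjusted p = 0.00155). Control replicate 1 lay closer to the low dose than the other controls, and against it alone the adjusted p was 0.331. Against the controls of days 3 and 14 it was also not past the threshold (log2 fold change -0.47, edgeR adjusted p = 0.505).

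miR-99a-5p, which represses mTOR in human cells, had 1759, 1853 and 1583 CPM in low dose livers, against 3496, 5254 and 2657 CPM in control livers. It fell by 1.13 on the log2 scale (SE 0.21, edgeR adjusted p = 5.83e-05), and also passed against the controls of days 3 and 14 (-0.97) and against control replicate 1 alone. miR-363-3p, from an X-linked paralog of the miR-17/92 cluster, had 29.4, 17.8 and 21.3 CPM in low dose livers, against 40, 52.5 and 68.5 CPM in control livers (log2 fold change -1.23 ± 0.25, edgeR adjusted p = 1.54e-04). miR-25-3p, carried in an intron of the replication gene Mcm7, had 1280, 1333 and 1244 CPM in low dose livers, against 2005, 3004 and 2461 CPM in control livers (log2 fold change -0.95 ± 0.15, edgeR adjusted p = 2.95e-06). For these 3 miRNAs every control library was above every low dose library, which the choice of the largest falls required.

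Over the 12 largest falls, from -1.95 to -0.95 on the log2 scale, edgeR adjusted p-values ran from 2.95e-06 to 0.00155, and all 12 passed with any of the 6 libraries left out. The controls used made more difference than for the rises. 7 of the 12 passed against the controls of days 3 and 14: miR-363-3p, miR-99a-5p, miR-532-5p, miR-6329, miR-200a-3p, miR-200b-3p and miR-25-3p. 6 passed against control replicate 1 alone: miR-363-3p, miR-99a-5p, miR-181a-2-3p, miR-6329, miR-15b-5p and miR-25-3p. Neither miR-598-3p (-1.25 ± 0.30) nor miR-455-5p (-1.06 ± 0.26) passed in either, as was the case for miR-411-5p.

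For each of the 102 hairpins with both arms tested, the log2 ratio of 5p to 3p counts was compared between the groups with limma, a comparison added after the data were seen and one that no scaling between libraries can move. The ratio changed in 53 hairpins (52%) at an adjusted p under 0.05, 23 (22.5%) toward the 5p arm and 30 (29.4%) toward the 3p arm, and in 35 at least 2-fold. The shift was toward the scarcer arm in 30 and toward the more abundant arm in 23. Against control replicate 1 alone 23 ratios passed, all of them among the 53. Arms were paired by name, and in 7 pairs, 5 of them called, 1 arm alone carries a copy number in its name (miR-128, let-7a, miR-92a, miR-7a, miR-664, miR-17 and miR-219a), so those arms need not come from the same hairpin. Without these 7, 49 of 95 ratios passed. The 95 still held pairs such as miR-194, whose 5p arm lies at more than 1 place in GRCr8.

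miR-191a moved by 3.39 ± 0.23 toward its 5p arm (limma adjusted p = 2.04e-15). The log2 ratio was 8.71, 8.34 and 9.01 in low dose livers, against 5.68, 4.92 and 5.29 in control livers. Its 3p arm had 25.8, 31.3 and 19.9 CPM in low dose livers, against 27.9, 32.7 and 24.8 CPM in control livers, and did not pass (log2 fold change -0.14 ± 0.18, edgeR adjusted p = 0.52). In miR-28 the dominant arm changed over: the log2 ratio was -1.74, -1.55 and -1.78 in low dose livers, with more 3p than 5p, against 0.44, 1.18 and 1.24 in control livers, with more 5p than 3p. miR-145 also changed over, at 1.64, 1.59 and 1.84 in low dose livers, against -1.31, -2.21 and -1.51 in control livers. Both changes, -2.64 ± 0.18 for miR-28 and 3.37 ± 0.24 for miR-145, were larger than the spread between replicates (limma adjusted p = 2.04e-15 and 3.23e-15).

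The same was seen in miR-361, at a log2 ratio of 0.51 to 0.61 in low dose livers, against -1.74 to -1.12 in control livers. In miR-22 the ratio rose by 3.39 ± 0.23 toward the scarce 5p arm, and miR-22-3p itself rose by 0.69. In miR-322 it moved by -2.90 ± 0.22, with miR-322-5p at 670.0, 833 and 618 CPM in low dose livers, against 567, 695 and 602 CPM in control livers (log2 fold change 0.19 ± 0.14, not past the threshold). miR-872 moved by -2.18 ± 0.21 toward its 3p arm. The ratio of miR-128-1-5p to miR-128-3p moved by -3.93 ± 0.56, and miR-128-3p can also come from another precursor.

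By single arms, 19 hairpins had both arms called, 12 with both higher, 4 with both lower and 3 with opposite signs, 55 had 1 arm called and 28 had none. The 3 with opposite signs were miR-98, miR-92a and miR-194. miR-194-5p, a hepatocyte miRNA, had a log2 fold change of -0.30 ± 0.12 and miR-194-3p 0.81 ± 0.21. miR-194-5p was close to the threshold (edgeR adjusted p = 0.0426) and did not pass without any 1 of 4 libraries, control replicate 2 and the 3 low dose replicates. It also did not pass with no low-count filter or with the replicate number as a block (-0.29). miR-194-3p did not pass without control replicate 2 (0.57), and miR-92a-1-5p did not pass without low dose replicate 3 (-0.55). Against control replicate 1 alone miR-92a-1-5p was the single arm of these 6 still called, so none of the 3 had both arms called there.

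**Figure D4:**
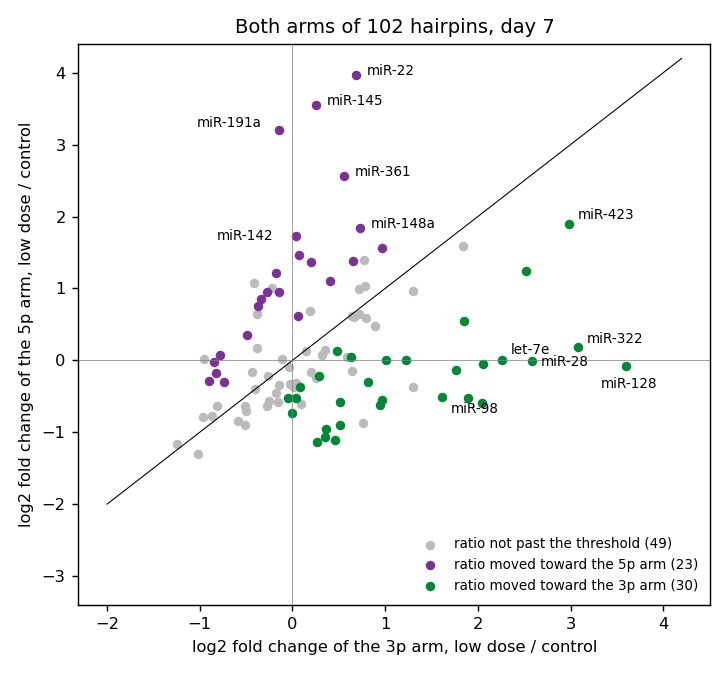
Log2 fold change of low dose over control on day 7 for the 5p arm (vertical axis) and the 3p arm (horizontal axis) of 102 hairpins, one point each, with the line of equal change. Coloured points are the 53 hairpins whose 5p to 3p ratio changed, 23 toward the 5p arm (above the line) and 30 toward the 3p arm (below it).

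The 10 most abundant miRNAs held 70.1, 69.4 and 70.4% of counts in low dose livers, against 71.5, 69.1 and 70.3% in control livers, with the balance among them altered. miR-192-5p, a hepatocyte and gut miRNA, had 14.2, 14.2 and 13.6% of counts in low dose livers, against 19.8, 22.4 and 20.1% in control livers (log2 fold change -0.52 ± 0.10, edgeR adjusted p = 3.52e-05). miR-22-3p had 21.6, 20.5 and 20.7% in low dose livers, against 16, 11.8 and 12.5% in control livers (log2 fold change 0.69 ± 0.10, edgeR adjusted p = 2.10e-06). miR-22-3p was thus the most abundant miRNA in every low dose liver and miR-192-5p in every control liver. Against control replicate 1 alone miR-22-3p was not called (0.33, edgeR adjusted p = 0.116).

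miR-26a-5p, which slowed liver tumours when delivered to mice, had 76076, 71568 and 78685 CPM in low dose livers, against 44646, 31770.3 and 33804 CPM in control livers. It rose by 1.04 ± 0.12 (edgeR adjusted p = 1.31e-08), and miR-26b-5p, with the same seed UCAAGUA, also rose by 1.04 ± 0.14. miR-21-5p, raised in many forms of liver regeneration and fibrosis, had 49861, 44541 and 66121 CPM in low dose livers, against 74110.3, 86364 and 105201 CPM in control livers (log2 fold change -0.73 ± 0.18, edgeR adjusted p = 0.00157). It did not pass against the controls of days 3 and 14 (-0.39) or against control replicate 1 alone. miR-148a-3p rose by 0.73 ± 0.14 (0.18 and not called against control replicate 1 alone). miR-10a-5p fell by 0.37 (SE 0.12), did not pass without low dose replicate 2, and was at -0.25 against control replicate 1 alone. miR-378a-3p, miR-143-3p and miR-27b-3p had log2 fold changes between -0.11 and 0.04 and did not pass.

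miR-122-5p, the most liver-restricted miRNA, had 31161, 37467 and 32964 CPM in low dose livers, against 40248, 44676 and 39786 CPM in control livers. The groups did not overlap, but the log2 fold change of -0.30 ± 0.14 did not pass (edgeR adjusted p = 0.0977). It passed with DESeq2's size factors (-0.39), as it did under 6 other alternatives. miR-122-3p fell by 0.74 (SE 0.16), and was not called against control replicate 1 alone (-0.36).

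Of 26 tested arms of hepatocyte-rich hairpins, 9 were higher and 6 lower, somewhat above the 26.5% and 18.6% of all tested, with a median log2 fold change of -0.01, against 0.02 over all. They held 605576 to 648023 CPM together in low dose livers, against 638961 to 663373 CPM in control livers. Against control replicate 1 alone 3 were higher and 3 lower. The members that rose included miR-30c-5p (0.78 ± 0.11) and miR-802-5p, a miRNA raised in livers of obese mice. miR-802-5p rose by 1.37 ± 0.26, and was at 0.61 against control replicate 1 alone. The members that fell included miR-101a-3p (-0.85 ± 0.15) and miR-101b-3p (-0.74 ± 0.14), which share the seed ACAGUAC and repress the histone methyltransferase Ezh2.

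Among 12 tested arms of miRNAs proposed as liver injury markers, 4 were higher and 3 lower (median log2 fold change 0.04), beside 26.5% and 18.6% of all tested. miR-193a-3p, a marker proposed in blood, had 4411, 4213 and 3539 CPM in low dose livers, against 888, 664 and 565 CPM in control livers. At 2.52 ± 0.22 on the log2 scale (edgeR adjusted p = 4.95e-11) it was the largest change of the list, and it also passed against control replicate 1 alone, where it was the single member still higher. miR-193a-5p and miR-29c-5p were the 2 higher members that did not pass with control replicate 2, control replicate 3 or low dose replicate 3 left out. miR-34a-5p, induced by p53, had 28.7, 27.4 and 30.4 CPM in low dose livers, against 26.8, 18.7 and 19.1 CPM in control livers, and its log2 fold change of 0.41 ± 0.31 did not pass. miR-331-3p did not pass either (0.09 ± 0.27). Of the 4 tested miR-34 members 1 was lower, miR-34c-5p (-0.84 ± 0.27), and it did not pass without low dose replicate 2.

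Of 9 tested sterol-linked miRNAs 2 were higher and 1 lower, fewer than the 45.1% called over all. The higher ones were miR-128-3p and miR-185-5p (0.63 ± 0.24), and miR-185-5p did not pass with DESeq2's size factors, with no filter, or with any of 3 libraries left out (control replicates 2 and 3 and low dose replicate 3). miR-33-5p, which lies in an intron of Srebf2 and represses Abca1, had 61.2, 61.7 and 54 CPM in low dose livers, against 73.6, 105 and 97.4 CPM in control livers (log2 fold change -0.64 ± 0.17, edgeR adjusted p = 0.0027). It was not called against control replicate 1 alone. miR-182 had a log2 fold change of 0.36 ± 0.21 and miR-183-5p 0.34 ± 0.43, neither past the threshold.

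The let-7 family represses growth genes in many tissues. Of 9 tested 5p arms, which carry the seed GAGGUAG, 3 were called, all lower, with a median log2 fold change of -0.22 and a highest value of 0.01 (let-7d-5p and let-7e-5p). Of 10 tested 3p arms, 6 were called, all higher, with a median of 1.19, beside 26.5% higher and 18.6% lower over all tested miRNAs. The 3p arms together held 775, 749 and 799 CPM in low dose livers, against 498, 356 and 358 CPM in control livers. let-7a-1-3p and let-7c-2-3p have 1 sequence and counts within 0.407% of each other, so they cannot be told apart and were counted once.

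let-7a-1-3p had 138, 133 and 142 CPM in low dose livers, against 57.9, 30.2 and 32.6 CPM in control livers (log2 fold change 1.76 ± 0.21, edgeR adjusted p = 1.79e-08). let-7d-3p, the most abundant 3p arm of the family, had 429, 417 and 448 CPM in low dose livers, against 271, 182 and 188 CPM in control livers (log2 fold change 1.01 ± 0.20). The lower 5p arms were let-7c-5p (-0.64 ± 0.16), let-7i-5p (-0.57 ± 0.11) and miR-98-5p (-0.51 ± 0.12). With DESeq2's size factors 5 were lower, and against control replicate 1 alone 2 of the 3p arms were higher, let-7a-1-3p (1.11) and let-7e-3p (1.63), and 1 of the 5p arms lower, let-7i-5p.

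The miR-17/92 cluster and its paralogs, known as drivers of cell division, had 6 lower and 2 higher members of 18 tested, together close to the 45.1% called over all. Within the neighbouring hairpins miR-25, miR-93 and miR-106b, 3 of 6 arms fell: miR-25-3p, miR-93-5p (-0.70 ± 0.13) and miR-106b-3p (-0.44 ± 0.16), which did not pass without low dose replicate 2 (-0.36) or with only the 6 libraries compared in the fit (-0.51). The 2 higher members were miR-92a-3p and miR-92b-3p (2.39 ± 0.31), which lies apart on chromosome 2 and shares the seed of miR-92a-3p. miR-92a-3p had 9327, 9537 and 9585 CPM in low dose livers, against 6245, 4373 and 4215 CPM in control livers (log2 fold change 0.94 ± 0.17). miR-92a-3p was not called against control replicate 1 alone, and miR-92b-3p was.

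The miR-15/16 family represses cyclin D1 and Bcl2 through the seed AGCAGCA. Of 12 tested arms of its hairpins 3 were lower and 2 higher, together near the 45.1% called over all. miR-16-5p had 9501, 8319 and 8167 CPM in low dose livers, against 12668, 19836 and 16127 CPM in control livers (log2 fold change -0.90 ± 0.16, edgeR adjusted p = 1.55e-05), and did not pass against the controls of days 3 and 14 (-0.26). miR-15b-5p (-0.96 ± 0.18) and miR-15a-5p (-0.67 ± 0.15, and -0.48 against control replicate 1 alone) were the others. The 2 higher arms were miR-322-3p and the scarce miR-503-3p (1.05 ± 0.36), which did not pass without control replicate 2, control replicate 3 or low dose replicate 2. Both are opposite arms without the seed AGCAGCA. Of the 5 tested arms known by sequence to carry that seed, 2 were lower and 0 higher.

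The 3p arms of the miR-29 family, which share the seed AGCACCA, repress collagens. Among them miR-29a-3p (0.40 ± 0.20) and miR-29b-3p (0.14 ± 0.17) did not pass. Of 5 tested miR-29 arms 3 were called, all higher, with 26.5% higher over all: miR-29a-5p (1.11 ± 0.22), miR-29c-3p (0.79 ± 0.19) and miR-29c-5p (0.59 ± 0.24). Of these, only miR-29a-5p was called against control replicate 1 alone, and miR-29c-5p, whose groups overlap, also did not pass with DESeq2's size factors (0.49), with library size alone (0.53) or with no low-count filter (0.54). In the miR-99/100 and miR-125 family 2 of 10 were higher and 2 lower, near the background. miR-125a-5p (1.39 ± 0.21) rose and miR-125b-5p (-0.65 ± 0.17) fell with the same seed, CCCUGAG, which miR-351-5p (1.92 ± 0.21) also carries. The pair miR-23a-3p (0.42 ± 0.12) and miR-23b-3p (-0.50 ± 0.16) was also opposite with one seed, UCACAUU, and neither passed against control replicate 1 alone. miR-23a-3p also did not pass with every library thinned to the smallest total (0.25) or without control replicate 3 (0.31). Seed families were built from the 292 tested miRNAs with a sequence, so others, such as miR-99a-5p, were not counted. Of 32 families with at least 2 such members, 17 had 2 or more calls and 3 had calls in both directions: those of miR-25-3p, miR-125a-5p and miR-23a-3p.

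Of 9 inflammation-linked arms 2 were higher, miR-146a-5p (1.08 ± 0.22) and miR-146b-5p (1.01 ± 0.27), which damp NF-kB signalling, and 1 lower, miR-21-5p, fewer than the 45.1% called over all. miR-146b-5p did not pass without control replicate 2. Neither of the 2 tested arms of the hypoxia-linked miR-210 was called, and with DESeq2's size factors miR-210-3p was lower. The files list 67 arms of the Dlk1-Dio3 cluster, of which 10 were tested, with a median log2 fold change of -1.05 and 2 lower, close to the 18.6% over all, miR-411-5p and miR-136-3p (-1.25 ± 0.51). miR-136-3p overlapped between the groups and did not pass with no low-count filter, without control replicate 2 or 3, without low dose replicate 2 or 3, or against control replicate 1 alone (-0.49). Without control replicate 1, 4 were lower and 1 higher, and without control replicate 2 or 3 a single one was lower. The cluster was scarce, with a summed level of 38.9 to 71.9 CPM in low dose livers, against 65.9 to 151 CPM in control livers.

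In bulk liver, a change in the number of cells of a type and a change of RNA per cell cannot be told apart. White blood cell miRNAs summed to 4178 to 5280 CPM in low dose livers, against 1561 to 2226 CPM in control livers, and of 9 tested arms 3 were called, all higher, near the 26.5% higher over all. miR-142-5p, found in all blood cell lineages, had 3687, 2816 and 3044 CPM in low dose livers, against 1077, 678 and 1114 CPM in control livers (log2 fold change 1.73 ± 0.22, edgeR adjusted p = 5.45e-08). miR-342-3p rose by 2.04 ± 0.26 and miR-150-5p, a mark of mature lymphocytes, by 0.64 ± 0.19, though miR-150-5p did not pass without control replicate 2 (0.48) or against control replicate 1 alone (0.46). The other arm of the same hairpin, miR-142-3p, had 371, 292 and 308 CPM in low dose livers, against 297, 264 and 381 CPM in control livers (0.04 ± 0.21, not past the threshold), and the myeloid miR-223-3p was at 0.27 ± 0.20.

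Of the 7 tested arms of stellate and smooth muscle hairpins 2 were higher, miR-145-5p and miR-199a-5p (0.86 ± 0.17), and 1 lower, miR-214-3p (-0.63 ± 0.22), together near the 45.1% called over all. miR-143-3p, transcribed with miR-145, was at 0.04 ± 0.11, and the miR-145-3p arm had 193, 214 and 183 CPM in low dose livers, against 193, 178 and 126 CPM in control livers. miR-199a-5p was at 0.68 and miR-214-3p at 0.04 against control replicate 1 alone. miR-214-3p did not pass without control replicate 2 or low dose replicate 2 or 3. Both arms of the endothelial miR-126a fell, miR-126a-3p by 0.90 (SE 0.16) and miR-126a-5p by 0.29 (SE 0.10), with 18.6% of all tested miRNAs lower. Among 7 tested arms of the miR-200 family, which keeps epithelia from expressing Zeb factors and marks bile duct cells in liver, 3 were lower: miR-200a-3p (-1.02 ± 0.20), miR-200b-3p (-0.96 ± 0.23) and miR-200a-5p (-1.30 ± 0.33). Over all tested miRNAs 18.6% were lower, and none of these 3 was called against control replicate 1 alone.

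The red blood cell miRNAs miR-486 (0.53 ± 0.33), miR-451-5p (-0.02 ± 0.32), miR-144-3p (-0.49 ± 0.31) and miR-144-5p (0.35 ± 0.32) did not pass, and summed to 2298 to 3593 CPM in low dose livers, against 1521 to 3210 CPM in control livers. Of 14 striated muscle arms 10, miR-1 and miR-206 among them, were at 0 in the 6 libraries. miR-133a-3p, at 4.09, 15.3 and 8.24 CPM in low dose livers, against 1.6, 1.08 and 3.14 CPM in control livers, was called higher and did not pass without low dose replicate 2. The pancreatic miR-375-3p (-0.02 ± 0.22) and the neural miR-9a-5p (0.83 ± 0.40) were not called, and both arms of miR-124 were at 0. The part of these cell types in the changes of shared miRNAs was not tested.

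Against the controls of days 3 and 14, which the day 7 comparison does not use, the same low dose libraries differed in 93 of 328 miRNAs (28.4%), 72 higher (22%) and 21 lower (6.4%). With DESeq2's size factors these were 61 higher and 52 lower, and the median over all miRNAs was -0.07, against 0.08 with TMM factors. Duration and dose cannot be told apart in this comparison. miR-128-3p (3.48 ± 0.30), miR-22-5p (3.41 ± 0.21), miR-322-3p (2.85 ± 0.17) and miR-191a-5p (2.72 ± 0.16) were the largest rises. The largest falls were miR-363-3p (-1.03 ± 0.23), miR-99a-5p (-0.97 ± 0.20), miR-100-5p (-0.74 ± 0.23) and miR-532-5p (-0.68 ± 0.18). miR-100-5p overlapped between the groups on day 7, with 876, 1252 and 1141 CPM in low dose livers, against 1147, 2288 and 1134 CPM in control livers.

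Between the libraries as labelled, the low dose effect was not the same on day 7 as on days 3 and 14, and an effect of day and a mismatch of label and dose cannot be told apart. The log2 fold change on day 7 minus its mean on days 3 and 14 passed for 123 miRNAs (37.5%), 76 (23.2%) more positive and 47 (14.3%) more negative on day 7, or 67 and 63 with DESeq2's size factors. All 24 of the largest rises and falls of day 7 were among them. These were chosen for their day 7 difference, which is part of the difference tested here, so their passing is no separate evidence. miR-22-5p averaged 15.1 ± 3.41, 149 ± 16.4 and 16.5 ± 1.72 CPM at the low dose on days 3, 7 and 14, against 11.4 ± 1.9, 9.24 ± 3.97 and 17.2 ± 2.99 CPM in the controls of these days (SD, n = 3 each except control day 14, n = 2). The low dose stood out on day 7 and lay near the controls on the other days, with a difference of effects of 3.80 ± 0.32 (edgeR adjusted p = 4.61e-11). miR-191a-5p averaged 1688 ± 456, 10474 ± 353 and 1329 ± 129 CPM at the low dose, against 1625 ± 376, 1137 ± 258 and 1546 ± 164 CPM in the controls (difference of effects 3.28 ± 0.22, edgeR adjusted p = 5.70e-13). For miR-16-5p the control of day 7 moved as well: the low dose averaged 10590 ± 2849, 8662 ± 730 and 10973 ± 518 CPM, against 10747 ± 1690, 16210 ± 3585 and 10053 ± 1853 CPM in the controls. miR-411-5p varied between days in both groups, with 47.5 ± 13.2, 11.3 ± 2.38 and 16.1 ± 7.09 CPM at the low dose, against 31.2 ± 20.3, 44.1 ± 20.6 and 7.9 ± 2.29 CPM in the controls.

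**Figure D5:**
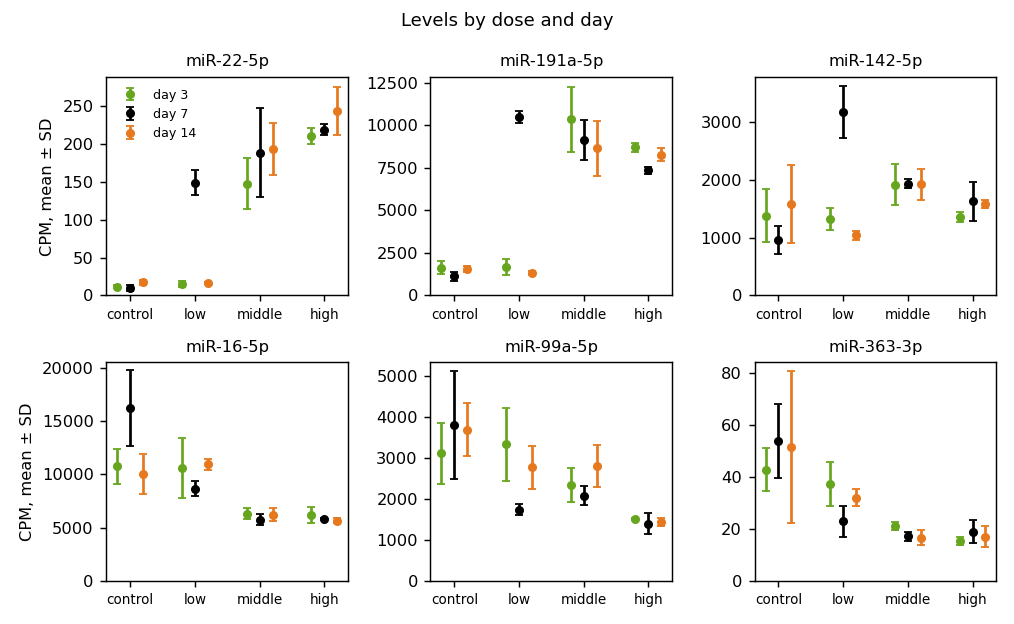
Mean CPM ± SD (vertical axes, from 0) of 6 miRNAs by dose (horizontal axis, control to high) and day (colour), with n = 3 libraries a point except control day 14 (n = 2). On day 7 miR-22-5p averaged 149 CPM at the low dose, near the middle (189) and high (219) doses, while on days 3 and 14 the low dose averaged 15.1 and 16.5 CPM.

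On day 7 the higher doses differed from the low dose in fewer miRNAs than the low dose did from control. These comparisons share the low dose libraries, so their values are given side by side only. The middle dose differed from the low dose in 33 of 328 miRNAs (10.1%), 7 higher (2.13%) and 26 lower (7.93%), or 17 and 18 with DESeq2's size factors, and in 13 to 41 with 1 library left out (13, 20 and 21 without middle dose replicate 3, middle dose replicate 2 and low dose replicate 3). The high dose differed from the low dose in 79 (24.1%), 23 higher (7.01%) and 56 lower (17.1%), or 34 and 29 with DESeq2's size factors, which moved the median of all miRNAs to -0.04, against -0.20 with TMM factors. Without high dose replicate 3 the count was 49. None of the 24 largest changes of the low dose passed between the middle and low dose, and 7 passed between the high and low dose, 3 of the rises and 4 of the falls.

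miR-193a-3p was highest at the low dose. It averaged 706 ± 166 CPM in control, 4054 ± 458 CPM at the low dose, 1642 ± 227 CPM at the middle dose and 1527 ± 264 CPM at the high dose on day 7 (SD, n = 3 each). The middle and high doses lay between control and the low dose, with a log2 fold change of -1.30 ± 0.21 for middle over low (edgeR adjusted p = 1.59e-04) and -1.41 ± 0.21 for high over low (edgeR adjusted p = 2.5e-05). miR-142-5p averaged 956 ± 242 CPM in control, 3183 ± 452 at the low dose, 1937 ± 80.4 CPM at the middle dose and 1631 ± 338 CPM at the high dose. miR-150-5p (-1.23 ± 0.19) and miR-374-5p (-1.28 ± 0.20) were lower at the high than at the low dose too. Going the other way, miR-148a-3p (0.55 ± 0.14) and miR-182 (0.99 ± 0.21) were higher at the middle than at the low dose, and miR-598-3p (1.18 ± 0.30) and miR-532-5p (0.89 ± 0.20), both lower at the low dose than in control, were higher at the high than at the low dose.

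Higher and lower miRNAs were close in GC content. Median GC content was 47.8% for the 75 higher and 46.5% for the 50 lower miRNAs with a sequence, against 47.6% for all 292 tested, and across miRNAs the rank correlation of the log2 fold change with GC content was 0.00 (n = 292 miRNAs, which share the same 6 libraries). The 3′ base was C in 30.7% of the higher miRNAs and 12% of the lower, against 19.2% of all tested, and A in 16% of the higher and 36% of the lower, against 25.7% of all. It was G in 18.7% of the higher and 30% of the lower, and U in 34.7% and 22%. These bases are of the reference sequences, not of the reads, and the differences in share were not tested. Calls were more frequent among abundant miRNAs, at 16.2% of those with a mean under 10 CPM and 67.2% of those over 1000 CPM, and the counting error is larger in the scarce ones. Of 31 groups of hairpins lying within 10000 bases of a neighbour in GRCr8, 6 held both higher and lower miRNAs, 8 higher only, 9 lower only and 8 none that passed. Only the 274 tested miRNAs with a sequence at 1 place entered, so the split can differ for whole clusters. For example, miR-92a-3p, called higher, was left out of the group of miR-17 and miR-92a-1-5p, counted as lower only.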

How the data were processed

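Small RNA libraries of rat liver were sequenced, and the deposited table holds the authors' raw counts per mature miRNA, unscaled. The build was rn6, per the submitters' processing notes. The sources used here do not give the aligner, counter, annotation or the rule for reads shared by near-identical miRNAs, so counts of such copies are uncertain (miR-466b-4-3p, called lower, repeats the counts of miR-466b-2-3p). Counts were scaled by TMM and filtered with filterByExpr (minimum count 10, minimum total 15), which kept 328 of 763 miRNAs. Of the rest, 151 were at 0 in all libraries and the other 284 held 0.0061% of the counts of the 6 libraries, at most 2.64 CPM each. All 35 libraries entered 1 fit of edgeR 4.0.16 under R 4.3.3, with the 12 group means (23 residual degrees of freedom, robust quasi-likelihood F-test). Benjamini-Hochberg adjustment was applied to each comparison over the 328 miRNAs, with a threshold of 0.05. CPM values use TMM-scaled totals, and principal components a prior count of 2. Repeat runs of a sample were summed. Arm ratios, log2 of 5p over 3p counts with a pseudocount of 0.5, were fitted in limma 3.58.1.

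The members, lists and tests were chosen with earlier results of these data known. Named miRNAs are the 12 largest rises and falls past the threshold with a mean of at least 10 CPM and groups that do not overlap, the 10 most abundant, up to 4 members of each list, 5 liver markers, hairpins with opposite arms, seed families and the 4 largest changes each way of each other comparison. A further 30, such as let-7a-1-3p, miR-342-3p and miR-872-3p, were added after their values were seen, as were the 3 seed families with calls both ways. Alternatives were DESeq2 1.42.0 and its size factors, library size alone, no filter, a filter of 10 CPM in 3 libraries, thinning, only the compared groups, a replicate block and single libraries left out. Steps were tested on simulated counts. Figures were drawn with matplotlib 3.10.9.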

Additional observations from a re-analysis of the deposited data

Results flagged for a closer look

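For 81 of the named miRNAs the effect of the low dose on day 7 differed from its mean effect on days 3 and 14 in the test of that difference (edgeR quasi-likelihood, Benjamini-Hochberg adjustment over 328 miRNAs). The values below are log2 differences of the effects, day 7 minus the mean of days 3 and 14, and rest on the same day 7 libraries as the main comparison, taken as labelled. Background to them is the 37.5% of all tested miRNAs that passed.

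Among the largest rises of day 7 the differences were 3.80 for miR-22-5p, 3.06 for miR-128-3p, 3.66 for miR-145-5p, 3.28 for miR-191a-5p, 2.99 for miR-222-3p, 2.92 for miR-322-3p, 3.21 for miR-365-3p, 2.87 for miR-423-3p, 2.43 for miR-671, 2.76 for miR-193b-3p, 2.45 for miR-28-3p and 2.45 for miR-361-5p. Among the largest falls they were -2.77 for miR-411-5p, -1.66 for miR-598-3p, -0.79 for miR-363-3p, -0.98 for miR-99a-5p, -1.29 for miR-181a-2-3p, -1.07 for miR-532-5p, -1.25 for miR-6329, -1.27 for miR-455-5p, -1.05 for miR-200a-3p, -1.13 for miR-200b-3p, -1.04 for miR-15b-5p and -0.94 for miR-25-3p.

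Hepatocyte and abundant miRNAs with such a difference were miR-192-5p at -0.44, miR-22-3p at 0.62, miR-21-5p at -0.76, miR-26a-5p at 1.06, miR-26b-5p at 1.07, miR-148a-3p at 0.67, miR-148a-5p at 1.85, miR-148b-3p at 0.59, miR-122-3p at -0.63, miR-194-3p at 0.85, miR-30e-5p at 0.48, miR-30c-5p at 0.74, miR-101a-3p at -0.80, miR-101b-3p at -0.75, miR-802-5p at 1.20, miR-193a-3p at 2.60 and miR-193a-5p at 1.84. Growth-linked miRNAs were miR-92a-3p at 0.89, miR-92b-3p at 2.14, miR-92a-1-5p at -0.71, miR-93-5p at -0.72, miR-18a-5p at -0.88, miR-16-5p at -0.96, miR-15a-5p at -0.68, miR-221-3p at 1.56, let-7i-5p at -0.61, let-7a-1-3p at 1.73, let-7c-2-3p at 1.73, let-7d-3p at 1.23, let-7e-3p at 1.78, let-7f-2-3p at 1.20 and miR-98-3p at 1.62.

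Markers of other cell types were miR-142-5p at 2.07, miR-150-5p at 0.85, miR-342-3p at 2.43, miR-126a-5p at -0.32, miR-126a-3p at -0.97, miR-199a-5p at 1.0, miR-133a-3p at 2.62 and miR-200a-5p at -1.39. Inflammation-linked and sterol-linked miRNAs were miR-146a-5p at 1.26, miR-146b-5p at 0.98, miR-33-5p at -0.62 and miR-185-5p at 0.91. The rest were miR-29c-3p at 0.87, miR-29a-5p at 0.88, miR-125a-5p at 1.39, miR-125b-2-3p at 1.24, miR-351-5p at 1.85, miR-127-3p at -1.60, miR-136-3p at -1.82, miR-181a-5p at -0.63, miR-181b-5p at -0.62, miR-374-5p at 1.27, miR-872-3p at 2.13, miR-23a-3p at 0.53 and miR-23b-3p at -0.51.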

How the results depend on the processing

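The count of miRNAs differing between low dose and control on day 7, 148, ran from 119 to 166 with 1 library left out and was 64 against control replicate 1 alone, where fewer libraries entered. The hairpin ratios, 53, ran from 44 to 56, and were 23 against that control alone. The ranges with 1 library left out were 75 to 109 against the controls of days 3 and 14, 98 to 147 for the difference between days, 13 to 41 for middle against low dose and 49 to 67 for high against low dose. Middle against low dose gave 21 without low dose replicate 3, 20 without middle dose replicate 2 and 13 without middle dose replicate 3, and high against low dose gave 49 without high dose replicate 3. With no low-count filter these 2 comparisons gave 20 and 45, and the cause was not tested. The other alternatives left each of these counts within 1.5 times. Over the 146 named miRNAs 47 of the 93 called on day 7 were called under every alternative. Of the called ones miR-214-3p changed sign, to 0.04 against control replicate 1 alone. Same-numbered low dose and control libraries did not deviate together (correlations of -0.09, 0.13 and -0.06), and with the replicate number as a block the count was 149 for the day 7 comparison, 102 against the controls of days 3 and 14, 123 for the difference between days, 33 and 77 for the middle and high doses, and 51 for the hairpin ratios. Counting error limits scarce miRNAs.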
